A study of Mus musculus with 8 samples.

Results

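The TGF-beta family genes described here were 9 genes chosen by name among 25006 measured in tumors of the 4T1 line, a mouse mammary carcinoma studied as a stand-in for triple-negative breast cancer. They were the ligand genes Tgfb1, Tgfb2 and Tgfb3, the receptor genes Tgfbr1, Tgfbr2 and Tgfbr3, the related ligand genes Inhba and Bmp4, and Ltbp2, which encodes a latent TGF-beta binding protein. All 9 symbols were found once in the deposited counts, and all 9 passed the filter on low counts that left 15310 genes for testing.

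TGF-beta ligands are secreted in a latent complex with their own propeptide, which latent binding proteins can anchor in the matrix, and integrins, thrombospondin or proteases release the active form. The active ligand brings together the kinases encoded by Tgfbr1 and Tgfbr2, of which the Tgfbr1 kinase phosphorylates Smad2 and Smad3. The Tgfbr3 product betaglycan presents ligand, TGF-beta2 above all. Activins, dimers that include the Inhba product, signal through related receptors to the same Smads, and BMP4 signals to Smad1, Smad5 and Smad9. In tumors the pathway is known for restraining T cells and NK cells and for driving matrix production by fibroblasts.

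There were 8 RNA libraries in 4 groups of 2, from tumors grown in the mammary fat pad for at most 20 days. The hosts were NSG mice, which lack T, B and NK cells, or Balb/c mice, the immunocompetent strain in which 4T1 arose. The hosts thus differ in strain as well, so that strain background and immune status cannot be told apart. The wild-type groups held the parental line (replicate 1) and a line stably expressing vCas9 (replicate 2). The knockout groups held CRISPR/Cas9 clones 54 (replicate 1) and 69 (replicate 2), in which CD95, the death receptor encoded by Fas, was targeted. All tumors therefore came from 4T1, each line was grown in both hosts, and the spread within a group includes differences between lines. Host age and the number of tumors per library were not given in the sources used here, so p-values measure the spread between these libraries, part of which may be technical. The knockouts are single clones, so that clonal selection and CD95 status cannot be told apart.

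Libraries held 8.68 M to 19.7 M counts, and 3 counts corresponded to 0.159 to 0.321 CPM (the library-size-scaled count that edgeR reports, here with TMM factors). Fas was read in all 8 libraries, at 12.9 to 33.9 CPM in NSG and 27.1 to 51.6 CPM in Balb/c, and passed in no knockout comparison (edgeR adjusted p-value 0.628 in NSG and 0.225 in Balb/c), so the knockout status rests on the labels. Epithelial markers of 4T1 were present everywhere, with a summed level of 7 genes from 699 CPM in Balb/c knockout replicate 1 to 3790 CPM in Balb/c knockout replicate 2. Summed over 7 genes, T cell markers were at 2.46 to 6.88 CPM in NSG and 255 to 345 CPM in Balb/c. The bulk values below mix RNA of tumor and host cells, and in them fewer cells of a type and less RNA per cell cannot be told apart.

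The balance of the ligand isoforms shifted with the host. Among the transcripts of the 3 TGF-beta isoforms, Tgfb1 was the most abundant in Balb/c tumors, by CPM and per length. In NSG tumors the order of Tgfb1 and Tgfb3 depended on the division by exon length (5042 and 3383 bases). These lengths join all annotated exons of a gene and can exceed that of a single transcript. Per length Tgfb3 was the higher. By CPM Tgfb1 was above Tgfb3 in each NSG library, at 107 against 79.4 and 103 against 89.7 in wild-type tumors. In knockout tumors these were 59.6 against 59.3 and 73.7 against 58.8 CPM. Tgfb1 was higher in Balb/c than in NSG tumors in both genotypes, Tgfb3 was lower in both, Tgfb2 was lower in knockout tumors, and Ltbp2 was lower in both. Adjusted over all genes, 3 of 9 members passed the threshold for the host in wild-type tumors, against 31.5% of all genes tested, and 5 of 9 in knockout tumors, against 31.1% of all genes. By direction, 1 member was higher and 2 lower in wild-type tumors, where 15.3% of all genes were higher and 16.2% lower. In knockout tumors 1 was higher and 4 lower, where 15.7% of all genes were higher and 15.4% lower. At an unadjusted p-value under 0.05 the members numbered 4 and 6, against 45.8% and 43.4% of all genes. The libraries of the hosts did not overlap for 5 members in wild-type and 7 in knockout tumors, against 76.4% and 64.2% of all genes. The wild-type counts of calls lie close to these shares of all genes. The median log2 fold change of the 9 members was -0.18 in wild-type and -0.71 in knockout tumors, beside -0.08 and 0.02 over all genes.

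With the host, Tgfb1 and Tgfb2 passed in opposite directions in knockout tumors, while Tgfb2 did not pass in wild-type tumors. Ltbp2 fell furthest of the members. The 250 bases before a RefSeq transcript start of these 3 genes are therefore shown, on the strand of the gene. They are RefSeq sequences of build GRCm38.p6 at chr7:25686752-25687001 (plus strand), chr1:186705990-186706239 (minus strand) and chr12:84876492-84876741 (minus strand). Capitals mark matches on either strand to any of 4 motifs. The GC box of SP1 and KLF factors was searched as GGGCGG. The TATA box was searched as TATAAA. The Smad-binding motif was searched as CAGACA. The AP-1 motif was searched as TGANTCA.
Tgfb1: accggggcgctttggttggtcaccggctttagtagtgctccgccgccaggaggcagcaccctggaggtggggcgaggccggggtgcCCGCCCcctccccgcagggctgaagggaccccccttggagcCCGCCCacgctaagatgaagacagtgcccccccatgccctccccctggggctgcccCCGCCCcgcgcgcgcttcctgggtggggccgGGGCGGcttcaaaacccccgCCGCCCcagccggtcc
Tgfb2: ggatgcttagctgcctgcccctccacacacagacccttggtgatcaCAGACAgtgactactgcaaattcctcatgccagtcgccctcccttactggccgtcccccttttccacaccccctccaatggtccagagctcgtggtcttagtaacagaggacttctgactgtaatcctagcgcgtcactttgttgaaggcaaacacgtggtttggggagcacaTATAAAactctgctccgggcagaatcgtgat
Ltbp2: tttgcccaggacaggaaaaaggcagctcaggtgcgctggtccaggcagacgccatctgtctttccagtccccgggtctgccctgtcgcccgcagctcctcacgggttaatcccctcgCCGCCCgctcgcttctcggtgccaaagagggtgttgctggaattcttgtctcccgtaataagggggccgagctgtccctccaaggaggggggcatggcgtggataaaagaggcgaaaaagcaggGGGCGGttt
The Tgfb1 window was 75.2% G or C and held 5 GC box matches, which did not overlap each other. The Tgfb2 window was 53.6% G or C and held 1 TATA box and 1 Smad motif match but no GC box. The Ltbp2 window was 61.6% G or C and held 2 GC box matches. Its RefSeq start lies within the GENCODE gene given below, so that the last 41 bases of the window, with 1 of these matches, are inside that gene. None of the 3 windows held an AP-1 match. Of 32851 windows of this length in the same table, 32.7% held a GC box match, 12.4% a TATA box, 17.1% the Smad motif and 6.75% the AP-1 motif. A match describes the letters and is not evidence of a bound site. Windows were found for 7 of the 9 members. None was found for Tgfbr3 or for Tgfb3, the isoform that moved opposite to Tgfb1 in both genotypes.

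**Figure D1:**
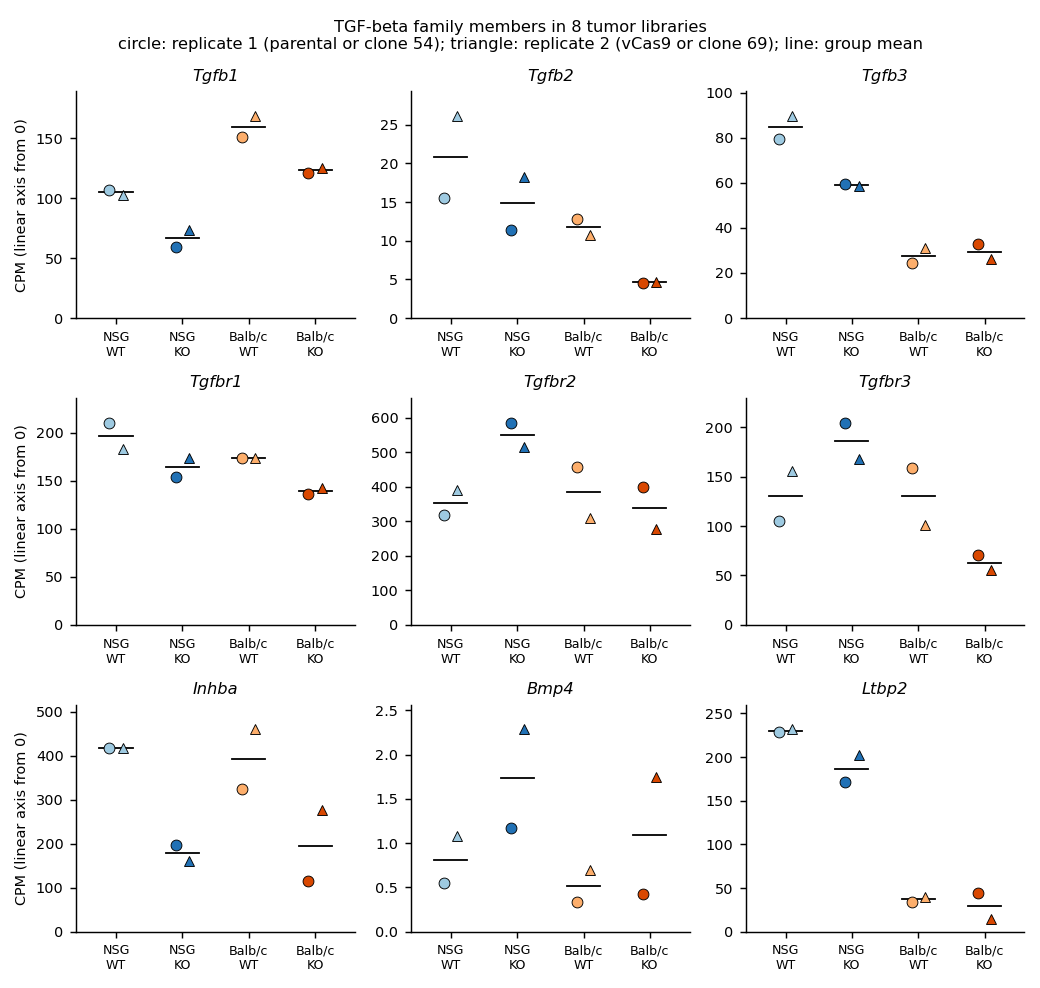
Each panel plots the CPM of 1 member (linear axis from 0) in the 8 libraries by group, with a line at the group mean, circles for replicate 1 and triangles for replicate 2. The Balb/c libraries of Tgfb1 lie above and those of Tgfb3 and Ltbp2 below every NSG library, and Inhba separates wild-type from knockout libraries in both hosts.

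Tgfb1 (ENSMUSG00000002603; chromosome 7, 25687002 to 25705077 in GRCm38) encodes the ligand made by most immune and stromal cells. It was at 107 and 103 CPM in NSG wild-type, 59.6 and 73.7 CPM in NSG knockout, 151 and 169 CPM in wild-type Balb/c, and 121 and 126 CPM in knockout Balb/c libraries. All 4 Balb/c libraries were above all 4 NSG libraries. Between hosts it was 1.52-fold higher in wild-type tumors of Balb/c hosts (log2 difference 0.61, SE 0.16, adjusted p-value from edgeR 0.0277). In knockout tumors it was 1.85-fold higher (log2 difference 0.89, SE 0.17, adjusted p-value from edgeR 0.00621). In wild-type tumors the call did not hold when cell line entered the fit as a block that pairs the hosts (log2 difference 0.60, adjusted p-value from edgeR 0.0807) or under total-count scaling (0.45, adjusted p-value 0.1). It was also lost without any 1 of the 4 libraries compared, with adjusted p-values of up to 0.146 and log2 fold changes of 0.56 to 0.68. In knockout tumors the call was kept in all 14 alternatives, at log2 fold changes of 0.69 to 1.05.

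Tgfb3 (ENSMUSG00000021253; chromosome 12, 86056745 to 86079041) encodes the isoform associated with mesenchyme and epithelial fusion in development. Gm48008 and Gm37804 on the opposite strand cover 7.6% and 4.82% of its exon bases, where reads are uncertain because the strand setting of the counting was not given. Its libraries were at 79.4 and 89.7 CPM in NSG wild type, 59.3 and 58.8 CPM in NSG knockout, 24.3 and 31.0 CPM in wild-type Balb/c, and 32.8 and 26.0 CPM in Balb/c knockout. Every Balb/c library was below every NSG library, and the NSG knockouts were below the NSG wild types. It was 3.06-fold lower in wild-type tumors of Balb/c hosts (log2 difference -1.61, SE 0.19, adjusted p-value from edgeR 0.00207). In knockout tumors it was 2.01-fold lower (log2 difference -1.01, SE 0.19, adjusted p-value from edgeR 0.00665). Both calls held in all 14 alternatives. The host effects differed by 0.61 on the log2 scale (SE 0.27, edgeR adjusted p-value 0.228), which did not pass.

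Tgfb2 (ENSMUSG00000039239; chromosome 1, 186622792 to 186705989) encodes the isoform that depends most on betaglycan for receptor binding. It was the least abundant TGF-beta isoform, at 15.5 and 26.2 CPM in NSG wild-type, 11.5 and 18.2 CPM in NSG knockout, 12.8 and 10.7 CPM in wild-type Balb/c, and 4.60 and 4.67 CPM in knockout Balb/c libraries. The Balb/c knockout libraries were the lowest of the 8, and the NSG groups overlapped each other. In knockout tumors Tgfb2 was 3.2-fold lower in Balb/c (log2 difference -1.68, SE 0.34, adjusted p-value from edgeR 0.00854). Without NSG knockout replicate 2 the value was -1.31 (edgeR adjusted p-value 0.0547), which missed the threshold. In wild-type tumors the log2 difference between hosts, -0.82 (SE 0.32), missed the threshold with an edgeR adjusted p-value of 0.0835.

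Per kilobase of exon, Tgfb1 made up 37.7% to 44.9% of the summed level of the 3 ligand transcripts in the 4 NSG libraries and 69.7% to 76.1% in the 4 Balb/c libraries. Tgfb3 made up 49.4% to 55.9% in NSG and 18.3% to 28.0% in Balb/c, and Tgfb2 between 2.30% and 8.95% throughout. The ratio of Tgfb1 to Tgfb3 per kilobase was therefore 0.675 to 0.906 in NSG and 2.48 to 4.17 in Balb/c libraries. These shares and ratios depend on the exon lengths used, whereas the fold difference of the ratio between hosts does not. The summed level moved less, from 31.3 to 51.4 CPM per kilobase in NSG and 33.4 to 44.5 in Balb/c, ranges that overlap. Within each genotype, markers of other cells moved with the host as well. The summed level of 8 fibroblast markers was 17200 and 25200 CPM in NSG wild-type against 12800 and 8710 CPM in Balb/c wild-type libraries, and 0 of the 8 passed. In knockout tumors it was 32900 and 28800 CPM against 11100 and 3990 CPM, with 6 of 8 genes lower in Balb/c. Summed over 8 genes, macrophage markers were at 3390 and 3410 CPM in NSG wild-type against 2160 and 2500 CPM in Balb/c wild-type libraries, with 1 gene higher and 2 lower. They were at 1750 and 2280 CPM against 10800 and 4400 CPM in knockout tumors, with 7 of 8 genes higher. NK cell markers were higher in Balb/c for 8 of 8 genes in wild-type and 7 of 8 in knockout tumors (medians 9.17 and 9.89), T cell markers for 7 of 7 in both, and B cell markers for 7 of 7 and 3 of 7 (medians 6.47 and 3.12). Neutrophil markers, 8 genes with 4 higher in wild-type and 1 higher and 1 lower in knockout tumors, summed to 1190 and 1500 CPM in NSG wild-type against 6910 and 5350 CPM in Balb/c wild-type libraries, and to 2680 and 1260 CPM against 383 and 2130 CPM in the knockouts. Of 7 adipocyte markers, 2 were lower in Balb/c in wild-type tumors (median log2 fold change -1.92). In knockout tumors 4 were lower and 1 higher (median -2.38). Their sum was 112 and 166 CPM in NSG wild-type against 41.9 and 93.6 CPM in Balb/c wild-type libraries. In the knockouts it went the other way, at 147 and 109 CPM in NSG against 211 and 281 CPM in Balb/c. Most of that sum was Fabp4, at 120 and 87.4 CPM against 198 and 263 CPM. The part of these cells in the change of ligand isoforms was not tested.

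**Figure D2:**
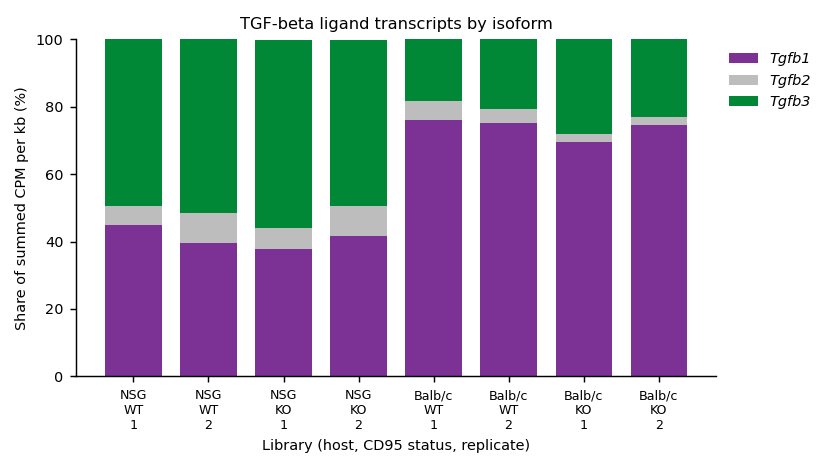
Stacked bars give the share of Tgfb1, Tgfb2 and Tgfb3 in their summed CPM per kilobase of exon (percent, from 0 to 100) in each library. Tgfb1 takes 69.7% to 76.1% in the Balb/c libraries and 37.7% to 44.9% in the NSG libraries.

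Among the receptors, Tgfbr1 and Tgfbr2 passed in no comparison, and Tgfbr3 fell with the Balb/c host in knockout tumors. Tgfbr3 (ENSMUSG00000029287; chromosome 5, 107106570 to 107289629) was at 105 and 156 CPM in NSG wild-type, 205 and 168 CPM in NSG knockout, 159 and 102 CPM in wild-type Balb/c, and 70.7 and 55.6 CPM in knockout Balb/c libraries. The wild-type groups of the hosts overlapped fully, whereas the Balb/c knockout libraries were the lowest and the NSG knockout libraries the highest of the 8. In knockout tumors Tgfbr3 was 2.95-fold lower in Balb/c (log2 difference -1.56, SE 0.29, adjusted p-value from edgeR 0.00595), a call that held in all 14 alternatives. In wild-type tumors it was 0.001 (SE 0.28, edgeR adjusted p-value 0.999), with a 95% interval of -0.65 to 0.65.

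Tgfbr1 (ENSMUSG00000007613; chromosome 4, 47353222 to 47414931), the type I receptor kinase, stayed within 136 to 211 CPM in all 8 libraries, the narrowest span of the 9 members at 0.63 on the log2 scale. Its host log2 fold change was -0.18 (95% interval -0.55 to 0.19) in wild-type and -0.24 (-0.61 to 0.13) in knockout tumors. Tgfbr2 (ENSMUSG00000032440; chromosome 9, 116084293 to 116175360), the type II receptor kinase, was at 317 and 391 CPM in NSG wild-type, 586 and 515 CPM in NSG knockout, 458 and 310 CPM in wild-type Balb/c, and 400 and 278 CPM in knockout Balb/c libraries. The NSG knockout libraries were the highest of the 8. Between hosts the log2 difference of Tgfbr2 in knockout tumors was -0.70 (SE 0.27), and its edgeR adjusted p-value of 0.0849 missed the threshold. It passed under total-count scaling (-0.89, adjusted p-value 0.0393) and without Balb/c knockout replicate 1 (-1.01, adjusted p-value 0.0386).

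Ltbp2 (ENSMUSG00000002020; chromosome 12, 84783212 to 84876532) encodes a matrix protein of the latent TGF-beta binding protein family that, unlike its relatives, is not known to bind latent TGF-beta itself. It was at 229 and 232 CPM in NSG wild-type, 172 and 202 CPM in NSG knockout, 34.1 and 40.0 CPM in wild-type Balb/c, and 44.3 and 14.0 CPM in knockout Balb/c libraries. The lowest NSG library was thus well above the highest Balb/c library, and the Balb/c knockout clones differed most from each other. It was 6.22-fold lower in wild-type tumors of Balb/c hosts (log2 difference -2.64, SE 0.46, adjusted p-value from edgeR 0.00684). In knockout tumors it was 6.38-fold lower (log2 difference -2.67, SE 0.46, adjusted p-value from edgeR 0.00431). In knockout tumors the value was -3.76 without Balb/c knockout replicate 1 and -2.07 without replicate 2, both past the threshold. Without Balb/c wild-type replicate 1 the wild-type value was -2.53 (edgeR adjusted p-value 0.0551) and missed the threshold. The antisense gene D030025P21Rik covers 9.34% of the exon bases of Ltbp2, and reads there are uncertain for the reason given for Tgfb3.

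The related genes Ltbp1, Ltbp3 and Ltbp4, whose products carry latent TGF-beta into the matrix, followed the same direction. In wild-type tumors the log2 difference between hosts was -1.66 (SE 0.26, adjusted p-value from edgeR 0.00502) for Ltbp1 and -2.06 (SE 0.26, adjusted p-value 0.00239) for Ltbp3. In knockout tumors it was -3.38 (SE 0.28, adjusted p-value 0.000359) for Ltbp1 and -3.16 (SE 0.27, adjusted p-value 0.000362) for Ltbp3. Ltbp4, named after its values were seen, gave -1.496 and -2.16 (adjusted p-values 0.00438 and 0.000747). The summed level of the 4 genes was 781 and 744 CPM in NSG wild-type, 736 and 856 CPM in NSG knockout, 191 and 198 CPM in wild-type Balb/c, and 102 and 99.3 CPM in knockout Balb/c libraries. The fibroblast marker sums given above were lower in the Balb/c libraries too. Of 6 pericyte and smooth muscle markers, 2 were lower in Balb/c in each genotype, Pdgfrb and Cspg4, with list medians of -1.51 in wild-type and -0.27 in knockout tumors. Of 8 endothelial markers, 3 were lower in wild-type tumors (median -1.01), and 1 was higher in knockout tumors (median -0.08). The 7 adipocyte markers had medians of -1.92 in wild-type tumors, with 2 lower, and -2.38 in knockout tumors, with 4 lower and 1 higher. Their summed level was nevertheless higher in Balb/c than in NSG knockout libraries, as given above. The part of these cells in the Ltbp levels was not tested.

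**Figure D3:**
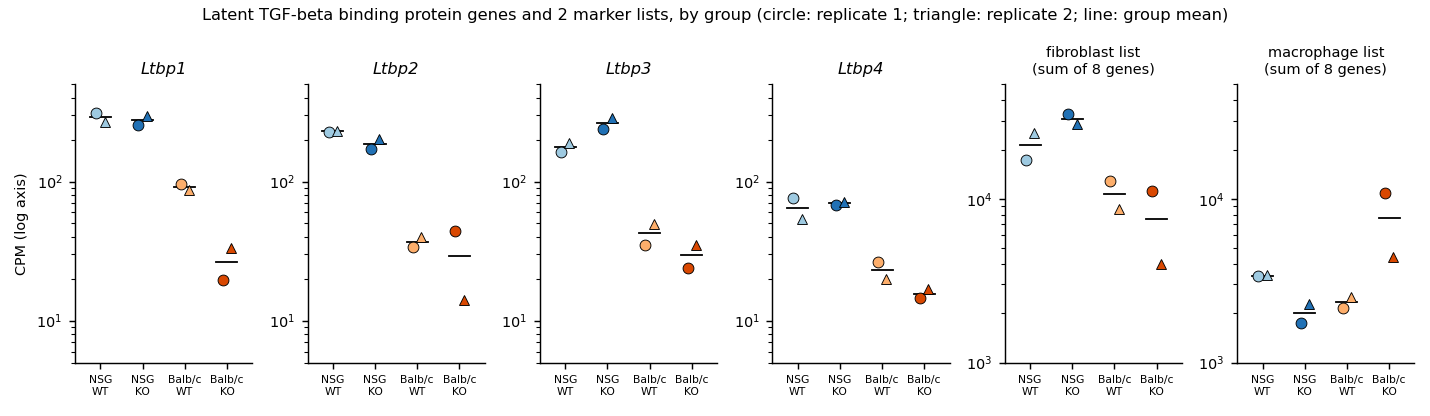
CPM on a log axis of Ltbp1, Ltbp2, Ltbp3 and Ltbp4, and the summed CPM of 8 fibroblast and 8 macrophage markers, are plotted by group with circles for replicate 1, triangles for replicate 2 and a line at the mean. The 4 Ltbp genes and the fibroblast sum are lower in all Balb/c than in all NSG libraries, and the macrophage sum is highest in Balb/c knockout tumors.

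The remaining ligand genes did not pass for the host. Inhba (ENSMUSG00000041324; chromosome 13, 16011851 to 16031621), the activin A subunit, had host log2 fold changes of -0.09 (95% interval -0.97 to 0.79) in wild-type and 0.13 (-0.76 to 1.01) in knockout tumors. Bmp4 (ENSMUSG00000021835; chromosome 14, 46383520 to 46390669) was near the detection limit, at 4 to 24 counts per library or 0.340 to 2.29 CPM. Gm15217, a gene on the opposite strand, covers 3.96% of its exon bases. Its 95% intervals spanned -2.55 to 1.33 and -2.45 to 1.02 for the host, so that even a 2-fold difference in either direction was within reach of the error.

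**Figure D4:**
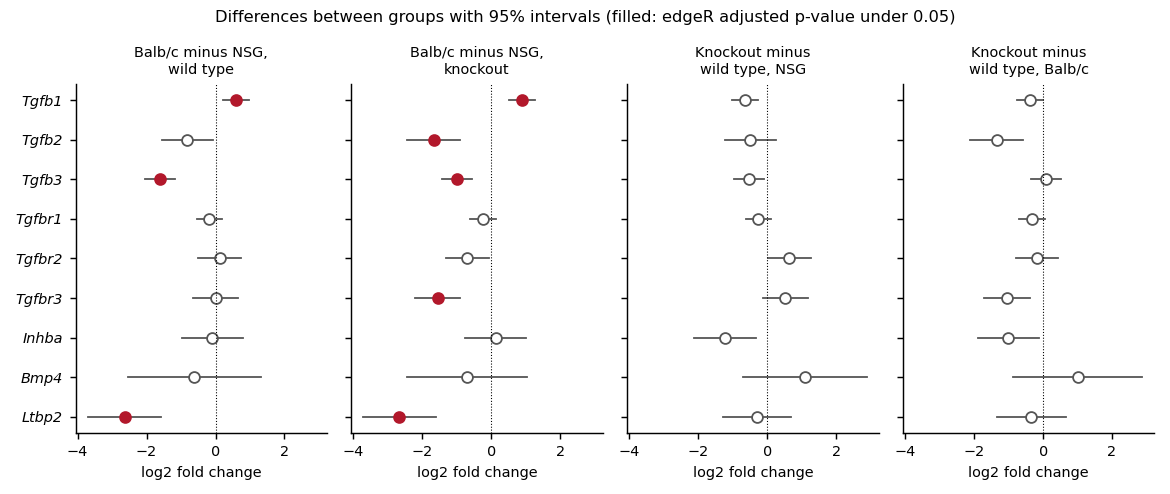
Log2 fold changes of the 9 members are plotted with 95% intervals for the host comparison in each genotype and the knockout comparison in each host, filled where the edgeR adjusted p-value was under 0.05. Filled points appear only in the host comparisons, 3 in wild-type and 5 in knockout tumors.

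The effect of CD95 knockout was then examined within each host. In NSG tumors 0 of 9 members passed the edgeR threshold, as did 0.0131% of all genes, and 4 of 9 had an unadjusted p-value under 0.05, against 14% of all genes. These 4 were Tgfb1 (log2 fold change -0.66, SE 0.17, edgeR adjusted p-value 0.213), Tgfb3 (-0.52, SE 0.19, 0.304), Tgfbr2 (0.64, SE 0.27, 0.347) and Inhba (-1.22, SE 0.39, 0.268). DESeq2 called 2 of them, Tgfb1 (adjusted p-value 0.0466) and Inhba (0.0455). In Balb/c tumors 0 of 9 members passed with edgeR, beside 0.176% of all genes (0.0457% higher and 0.131% lower), and 3 of 9 had an unadjusted p-value under 0.05, against 30.9% of all genes. They were Tgfb2 (-1.34, SE 0.33, edgeR adjusted p-value 0.062), Tgfbr3 (-1.05, SE 0.28, 0.0689) and Inhba (-1.01, SE 0.39, 0.126). DESeq2 called all 3, with adjusted p-values of 0.00544, 0.00714 and 0.0315, and edgeR without the filter on low counts called them with 0.0179, 0.0206 and 0.0489. The median log2 fold change of the members was -0.30 in NSG and -0.34 in Balb/c, beside 0.01 and 0.06 over all genes. Of the 8 macrophage markers 0 passed in either host, but their median log2 fold change was -0.89 in NSG and 1.57 in Balb/c, where all 8 had an unadjusted edgeR p-value under 0.05. In Balb/c the median was also 1.62 for 8 endothelial markers (8 with an unadjusted p-value under 0.05), -2.68 for 8 neutrophil markers (6) and -3.18 for 7 B cell markers (5). In NSG it was 1.30 for the 7 epithelial markers of 4T1, of which 7 were positive, 3 of them with an unadjusted p-value under 0.05. It was -1.80 for the 4 platelet and megakaryocyte markers tested, 2 of them with an unadjusted p-value under 0.05. The part of these cells in the members' values was not tested.

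Inhba, the activin A subunit gene, was lower in every knockout than in every wild-type library of the same host, with log2 fold changes of -1.22 in NSG and -1.01 in Balb/c that did not pass. It was at 417 and 418 CPM in NSG wild-type against 196 and 161 CPM in NSG knockout libraries, and in Balb/c at 325 and 460 CPM in wild-type against 114 and 277 CPM in Balb/c knockout libraries. Groups did not overlap for 52.6% of all genes in NSG and 62.2% in Balb/c, so that this pattern alone is common. The 95% interval was -2.12 to -0.33 in NSG and -1.90 to -0.12 in Balb/c. In Balb/c the value varied with the knockout library left out. Without that of clone 69 it was -1.78 (edgeR adjusted p-value 0.00734) and without that of clone 54 it was -0.61 (edgeR adjusted p-value 0.248). Leaving out any 1 of the 8 libraries gave log2 fold changes of -1.38 to -1.09 in NSG and -1.78 to -0.61 in Balb/c. Inhba is set apart here with its values already known.

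Tgfbr3 had the largest difference in knockout effect between hosts, in that it was 0.52 (SE 0.28) on the log2 scale in NSG and -1.05 (SE 0.28) in Balb/c tumors. The difference was -1.56 (SE 0.40, edgeR adjusted p-value 0.107), and it did not pass. With DESeq2 it was -1.63 (adjusted p-value 0.00982) and with edgeR without the low-count filter -1.62 (adjusted p-value 0.0272). No other member passed this test under any alternative, and 1 of 9, Tgfbr3, had an unadjusted edgeR p-value under 0.05, against 22.5% of all genes. Over all genes 0% passed. Ltbp2 had differences of -0.30 (95% interval -1.29 to 0.69) in NSG and -0.34 (-1.35 to 0.67) in Balb/c for the knockout, intervals wide enough to include a 2-fold decrease. For Tgfb3 in Balb/c the difference was 0.09 (-0.35 to 0.53), and its sign flipped with RLE size factors.

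Other genes of the pathway were taken from a list of 56, of which 50 could be tested. For the host in wild-type tumors 4 were higher and 14 lower in Balb/c, with a median log2 fold change of -0.37, and in knockout tumors 5 were higher and 19 lower, with a median of -0.70, beside -0.08 and 0.02 over all genes. Among all genes 15.3% were higher and 16.2% lower in wild-type tumors, and 15.7% higher and 15.4% lower in knockout tumors. The 18 of 50 called in wild-type tumors thus lay near the 31.5% of all genes. In knockout tumors 24 of 50 were called, against 31.1%. Of the 10 genes for latency and activation, 2 were higher and 5 lower in wild-type tumors and 2 higher and 4 lower in knockout tumors. Furin, the protease that cleaves the TGF-beta propeptide, was at 272 and 302 CPM in NSG wild-type and 766 and 886 CPM in Balb/c wild-type libraries, a log2 difference of 1.52 (SE 0.22, adjusted p-value from edgeR 0.00398). In knockout tumors it rose by 1.21 (SE 0.22, adjusted p-value 0.00572). Itgb8, a subunit of an integrin that activates TGF-beta, rose by 2.58 (SE 0.45, adjusted p-value 0.00696) in wild-type tumors from 1.52 and 2.07 CPM to 8.66 and 12.8 CPM. Without NSG wild-type replicate 1 the calls of Itgb8 (2.36, edgeR adjusted p-value 0.0668) and, in wild-type tumors, Furin (1.45, 0.0514) were lost. In knockout tumors the log2 difference of Itgb8 was 1.01 (SE 0.42, edgeR adjusted p-value 0.105), which did not pass. Beside the Ltbp genes, the lower members of this list, named after their values were seen, were Thbs1, the gene of the activator thrombospondin 1, and Lrrc32, whose product GARP holds latent TGF-beta on the cell surface. Thbs1 was at 4916 and 5821 CPM in NSG wild-type, 1393 and 1420 CPM in NSG knockout, 1701 and 1988 CPM in wild-type Balb/c, and 498 and 1241 CPM in knockout Balb/c libraries. Its log2 difference between hosts in wild-type tumors was -1.54 (edgeR adjusted p-value 0.0269), a call lost with the line block (0.0629) and without any 1 of the 4 libraries compared (0.0926 to 0.142). The knockout value was -0.69 (edgeR adjusted p-value 0.227) and passed without Balb/c knockout replicate 2 (-1.49, 0.0065). Lrrc32 fell by 1.18 in wild-type (edgeR adjusted p-value 0.0159) and 1.49 in knockout tumors (0.00572). The wild-type call of Lrrc32 was lost with the line block (0.0677) and without NSG replicate 2 (-0.83, 0.0961) or Balb/c replicate 2 (-0.88, 0.123). Nrros, which holds latent TGF-beta1 on myeloid cells, rose by 2.14 (SE 0.31, adjusted p-value 0.00245) in knockout tumors, where the macrophage markers were also higher, and their part in it was not tested. In wild-type tumors Nrros was at 0.67 (edgeR adjusted p-value 0.123), and it passed when only those groups were fitted (0.00464) and without Balb/c knockout replicate 1 (0.0231) or 2 (0.0345).

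The list of other ligands had 9 genes tested, of which 4 were lower in each genotype and 0 higher, where 16.2% of all genes were lower in wild-type and 15.4% in knockout tumors. In each genotype 1 of the 4 was Bmp1, which encodes a protease named with the BMPs and no ligand. The other 3 were Bmp7, Gdf15 and Inhbb in wild-type and Bmp7, Bmp6 and Inhbb in knockout tumors. Several of these calls were not stable. That of Bmp7 in knockout tumors (-1.33, edgeR adjusted p-value 0.046) was lost in 8 of 14 alternatives, with the line block (0.0619), with only the groups compared (0.0853) and without any 1 of 6 libraries, the NSG wild types excepted. That of Bmp6 (-1.72, edgeR adjusted p-value 0.0188) was lost in 5, with the line block (0.0647), with only the groups compared (0.0681) and without NSG knockout replicate 1 (0.08) or 2 (0.0514) or Balb/c knockout replicate 1 (-1.296, 0.0558). That of Inhbb was lost in wild-type tumors (-1.63) without NSG replicate 2 (edgeR adjusted p-value 0.0871) or Balb/c replicate 1 (0.0818), and in knockout tumors (-1.28) without NSG replicate 2 (0.144) or Balb/c replicate 1 (0.094). That of Bmp1 in wild-type tumors (-1.59, edgeR adjusted p-value 0.0107) was lost without NSG replicate 1 (0.06) or 2 (0.0622) or Balb/c replicate 2 (0.09). Gdf15, a stress-induced family member, fell by 3.11 (SE 0.43, edgeR adjusted p-value 0.00337) and Bmp7 by 2.06 (SE 0.40, adjusted p-value 0.00943) on the log2 scale in wild-type tumors. In knockout tumors Gdf15 was at -1.08 (edgeR adjusted p-value 0.0786) and passed without Balb/c knockout replicate 1 (-1.68, 0.0332). The Bmp7 call in wild-type tumors was lost without NSG replicate 1 (-1.39, edgeR adjusted p-value 0.068), Balb/c replicate 1 (-2.12, 0.0591) or Balb/c replicate 2 (-1.94, 0.0653). In knockout tumors Bmp1, whose product processes collagen and LTBP1, fell by 2.65 (SE 0.33, adjusted p-value 0.00134). Of the 9 other receptor genes tested, 2 were lower in wild-type and 4 in knockout tumors, against the same shares of all genes, and none passed as higher in either.

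Of 6 antagonist genes tested, 1 was higher and 2 lower in Balb/c in wild-type tumors (median log2 fold change -0.76). In knockout tumors 1 was higher and 4 lower (median -1.58). The shares over all genes were 15.3% higher and 16.2% lower in wild-type and 15.7% and 15.4% in knockout tumors. The higher gene was Grem1 in both genotypes. Fst and Fstl3 were lower in both, and Chrd and Dcn in knockout tumors. Grem1, a secreted BMP antagonist, was at 0.895 to 1.45 CPM in the NSG and 11.2 to 19.4 CPM in the Balb/c tumors, with host log2 fold changes of 3.13 (SE 0.36, edgeR adjusted p-value 0.00195) in wild-type and 3.88 (SE 0.39, adjusted p-value 0.000618) in knockout tumors. Fst, which encodes the activin antagonist follistatin, was at 44.7 and 55.5 CPM in NSG wild-type, 44.4 and 41.3 CPM in NSG knockout, 34.8 and 19.1 CPM in wild-type Balb/c, and 6.19 and 5.18 CPM in knockout Balb/c libraries. It fell by 2.91 (SE 0.31, edgeR adjusted p-value 0.000726) with the host in knockout tumors. In wild-type tumors its log2 difference between hosts was -0.90 (edgeR adjusted p-value 0.0434), a call lost in 9 of 14 alternatives, with values of -1.39 to -0.46 and an adjusted p-value of 0.094 with the line block. Of the single libraries, leaving out Balb/c wild-type replicate 1 or Balb/c knockout replicate 2 kept it. Fst was also the single gene of the 50 to pass for the knockout in Balb/c, at -2.24 (SE 0.30, edgeR adjusted p-value 0.0467), while 21 of 50 had an unadjusted p-value under 0.05, against 30.9% of all genes. This call was lost in 8 of 13 alternatives, with log2 fold changes of -2.69 to -1.74 and edgeR adjusted p-values of up to 0.282. They were total counts (adjusted p-value 0.0504), only the groups compared (0.182) and leaving out NSG wild-type replicate 1 (0.11) or 2 (0.106), NSG knockout replicate 1 (0.0773) or 2 (0.0802), Balb/c wild-type replicate 1 (0.282) or Balb/c knockout replicate 1 (0.0927). In NSG 0 of 50 passed for the knockout and 10 had an unadjusted edgeR p-value under 0.05, against 14% of all genes. For the difference between hosts 0 of 50 passed and 13 had an unadjusted edgeR p-value under 0.05, against 22.5% of all genes.

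Of 9 Smad and corepressor genes tested, Ski, which encodes a Smad corepressor, was higher by 1.16 (SE 0.19, edgeR adjusted p-value 0.00608) in Balb/c wild-type tumors, a call lost without NSG wild-type replicate 1 (1.134, edgeR adjusted p-value 0.059) or replicate 2 (1.17, 0.0505). In knockout tumors Ski was at 0.50 (edgeR adjusted p-value 0.08), passed without Balb/c knockout replicate 1 (0.69, 0.0163), and 1 other gene of the list was lower. Of the 7 response genes, 1 was lower in wild-type tumors, Pmepa1 (-0.75, edgeR adjusted p-value 0.0198). In knockout tumors 2 were higher, Id2 and Tgfbi (0.99, edgeR adjusted p-value 0.0353). The 2 lower there were Pmepa1 (-1.03, edgeR adjusted p-value 0.00514) and Ccn2 (-2.34, 0.0104). Pmepa1, Tgfbi and Ccn2 are named with their values already known, and their calls were not recomputed in the alternatives. For the Smad and response genes too, the shares over all genes were 15.3% higher and 16.2% lower in wild-type and 15.7% and 15.4% in knockout tumors. Among the response genes Id2, a BMP-responsive inhibitor of basic helix-loop-helix factors, rose by 2.16 (SE 0.22, adjusted p-value 0.00063) in knockout tumors, from 150 and 105 CPM in NSG to 573 and 566 CPM in Balb/c. In wild-type tumors it was at 0.44 (edgeR adjusted p-value 0.137), and it passed when only those groups were fitted (0.0124).

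**Figure D5:**
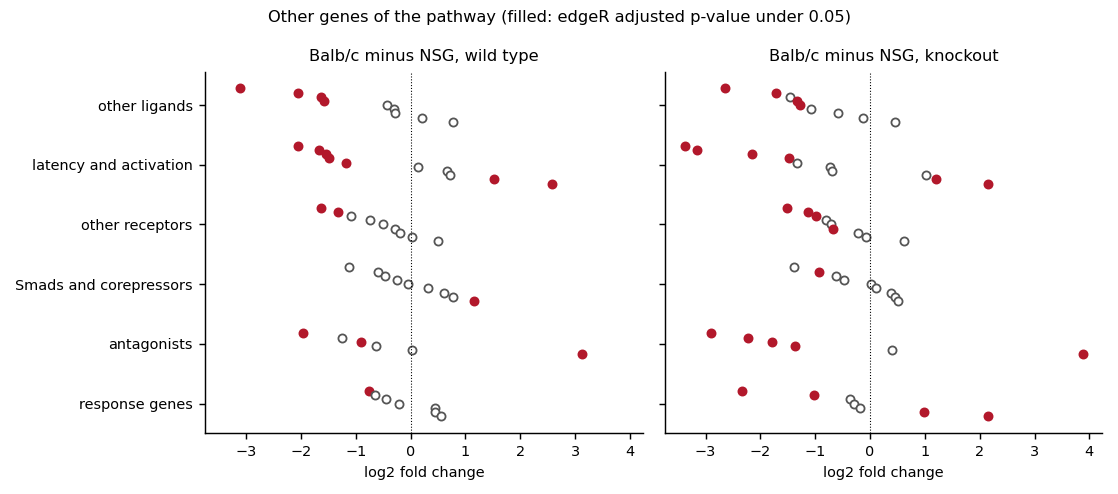
Each point is the log2 fold change of 1 of the 50 tested pathway genes between Balb/c and NSG, by list, for wild-type (left) and knockout tumors (right), filled where the edgeR adjusted p-value was under 0.05. Lower values prevail, with 14 against 4 filled points in wild-type and 19 against 5 in knockout tumors.

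Compared per kilobase of exon, the members ranked by median level over the 8 libraries as Tgfbr2 (48.3 CPM per kilobase), Inhba (47.1), Tgfbr1 (26.6), Tgfb1 (22.7), Tgfbr3 (19.9), Tgfb3 (13.5), Ltbp2 (13.2), Tgfb2 (2.10) and Bmp4 (0.394). The ranges of neighbours in this order overlapped in every case, and the order differed by group. The mean of Inhba exceeded that of Tgfbr2 in wild-type tumors of NSG (65.4 against 43.2) and of Balb/c (61.5 against 46.9), and was below it in knockout tumors (28.0 against 67.2, and 30.6 against 41.4). The pooled medians of Ltbp2 and Tgfb3 describe neither host. By group means both genes held their pooled places in the Balb/c groups, whereas in the NSG groups Ltbp2 ranked above Tgfb3. Group means of Ltbp2 were 28.2 and 22.8 in NSG and 4.52 and 3.56 in Balb/c, and single libraries of Tgfb3 were at 17.4 to 26.5 in NSG and 7.18 to 9.68 in Balb/c. Tgfbr2 (33.9 to 71.6) and Tgfbr1 (20.8 to 32.2) did not overlap over the 8 libraries, nor did Bmp4 (0.151 to 1.02) with Ltbp2 (1.71 to 28.3) or any gene ranked above it.

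The 3 members with the widest range of log2 CPM over the libraries were Ltbp2 (4.03), Tgfb2 (2.47) and Bmp4 (2.31). By the root mean square difference of centred log2 CPM over 8 libraries, the genes nearest to Ltbp2 were Cd109 (0.30) and Tnc (0.33), against a median of 1.499 over all genes. Cd109 encodes a membrane coreceptor that binds TGF-beta, and Tnc encodes the matrix protein tenascin C. The nearest genes to Tgfb2 were Tert (0.23) and Pknox2 (0.30), against a median of 0.92, and those to Bmp4 were Hdhd3 (0.26) and Pcdhgc4 (0.28), against 0.88. Tert, Pknox2, Hdhd3 and Pcdhgc4 were all under 5.1 CPM in every library, so their likeness rests on few reads. The nearest member was Tgfb3 for Ltbp2 (0.84) and Tgfbr3 for Tgfb2 (0.51).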

How the data were processed

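RNA was sequenced from 8 tumor libraries. Per the submitters' processing notes, cutadapt 1.13, STAR, HTSeq 0.6.1p1 and DESeq2 were used and the builds mm10 and hg19 were named, with no roles given. The authors deposited raw counts per Ensembl gene, 1 file per library. The annotation and strand setting are not given in the sources used here. Symbols matched 24942 of 25006 identifiers, and positions and exon lengths came from GENCODE M21 (GRCm38, the same assembly as mm10). Exon length was that of all annotated exons of a gene joined, so orders and shares per kilobase depend on this choice.

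Counts were fitted in R 4.3.3 with edgeR 4.0.16 (filterByExpr with a minimum count of 10, TMM, estimateDisp, glmQLFit, glmQLFTest), with 4 group means over all 8 libraries and 4 residual degrees of freedom. P-values were adjusted by Benjamini and Hochberg over 15310 genes, with a threshold of 0.05. SE came from the log2 fold change and the F statistic. DESeq2 1.42.0, other scalings, no filter, only the groups compared, the cell line as a block and leaving out each library were the alternatives. In counts simulated for the host comparison in wild-type tumors (14954 genes tested), 63% of genes changed 4-fold and 11% of those changed 2-fold were recovered, with 7.5% false calls. For the knockout in Balb/c (14963 genes) these were 73%, 6% and 8.14%. In each simulation 100 genes were changed 2-fold and 100 genes 4-fold, in 1 group. In the real host comparison of wild-type tumors 31.5% of genes passed, and recovery depends on how many genes change. The simulated rates therefore do not give the power of the real host tests.

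The members, lists and tests were chosen with earlier results of these data known. Named were all members, Fas, and called pathway genes, up to 4 per direction and comparison with the largest change among those with a group mean of at least 5 CPM. Pairing rests on the cell lines, each grown in both hosts. Across genes, the difference between wild-type lines had a correlation of 0.09 from one host to the other, and that between clones -0.35. Libraries of a group differed by more than sampling noise (chi-square per degree of freedom 18.1 to 115). Floors cover counting error only.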

Additional observations from a re-analysis of the deposited data

How the results depend on the processing

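Of 601 member results recomputed, 545 kept direction and side of the threshold, 8 lost and 13 gained the call, and 35 changed sign, none of them called in the reported fit. Pairing the hosts by a replicate block for cell line, the host comparison gave 2073 genes against 4825 in wild-type and 2878 against 4757 in knockout tumors. Of the member calls the block ended that of Tgfb1 in wild-type tumors and no other. Changed signs were Tgfbr3 (-0.007) for the host in wild-type and Inhba (-0.002) in knockout tumors with the block. Under total counts they were Tgfbr2 (-0.041) and Tgfbr3 (-0.16) in wild-type and Inhba (-0.06) in knockout tumors, and with RLE factors Inhba (0.002) for the host in wild-type tumors and Tgfb3 (-0.006) for the knockout in Balb/c. Total counts moved the median of all genes from -0.08 to -0.24 and the higher share of calls from 48.6% to 36.5% in wild-type tumors, and from 0.02 to -0.17 and from 50.5% to 37.3% in knockout tumors. Member levels shifted by -7.54% to 11.4%, in 9 of 36 cases by more than 1 SD.

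Counts of calls also moved. Fitting only the groups compared gave 6838 against 4825 genes for the host in wild-type tumors, 2450 against 4757 in knockout tumors, 1 against 2 for the knockout in NSG and 0 against 27 in Balb/c. RLE factors gave 94 in Balb/c. No filter on low counts gave 133 in NSG, 1774 in Balb/c and 674 against 0 for the difference between hosts, with 0, 3 and 1 members. DESeq2 gave 339, 2161 and 968 genes, with 2, 3 and 1 members.

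Leaving out 1 library at a time gave 858 to 6361 genes and 1 to 3 members for the host in wild-type tumors, and 2461 to 4640 genes in knockout tumors. For the knockout it gave 0 to 1 genes in NSG, and 0 to 3886 genes with 0 to 1 members in Balb/c. It gave 0 to 2370 genes for the difference between hosts. The high counts came without Balb/c knockout replicate 2, and the cause was not tested. Where a library left alone in its group is used, it is assumed to vary like the other groups. Signs changed for the host in wild-type tumors for Tgfbr2 (-0.20 to 0.44), Tgfbr3 (-0.365 to 0.36) and Inhba (-0.29 to 0.13), and in knockout tumors for Inhba (-0.64 to 0.605). For the knockout in Balb/c they changed for Tgfb3 (-0.19 to 0.25), Tgfbr2 (-0.57 to 0.13), Bmp4 (-0.30 to 1.61) and Ltbp2 (-1.505 to 0.27). For the difference between hosts they changed for Tgfbr1 (-0.16 to 0.052), Inhba (-0.55 to 0.60), Bmp4 (-1.40 to 0.50) and Ltbp2 (-1.22 to 0.57). No paired analysis was possible for the knockout within a host because wild-type lines and clones are different lines. Depth limits Bmp4 above all, at 4 to 24 counts per library. Bmp4 did not pass the filter in 2 of the fits restricted to the groups compared and has no value there. Of 28 calls of other named genes that were recomputed, 15 held in every alternative run for them. Fas for the knockout in NSG ranged from -1.13 to 0.06, and Bmp6 for the host in wild-type tumors from -0.058 to 0.49, with 1 library left out.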
